A study of Danio rerio with 8 samples.

Results

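The genes described here are 10 transcription factors that act at the output of the circadian clock in zebrafish. They are the PAR bZIP genes *dbpa*, *dbpb*, *tefa*, *tefb*, *hlfa* and *hlfb*, the related bZIP gene *nfil3*, and the Rev-erb genes *nr1d1*, *nr1d2a* and *nr1d2b*. They were chosen by family and by symbol, but with earlier results of these data known, so the choice was not blind to their values. They are 10 of the 32520 rows of the gene count table. Some relatives of *nfil3* and of the Rev-erb genes were left out of the 10, and those that were tested are described further below. All 10 passed the filter on low counts (at least 10 counts in at least 3 libraries), as did 19412 rows in all. The data came from 8 RNA-seq libraries made from whole heads of larvae at 7 days post-fertilization (dpf), 4 from wild-type (WT) larvae and 4 from larvae homozygous for a deletion of the whole *mtmr5* gene (*mtmr5*-KO), which is listed as *sbf1* in the files. The line was made with CRISPR/Cas9 in the AB strain, and larvae were fin clipped for genotyping on the days before the heads were taken. The paper calls the WT larvae siblings of the *mtmr5*-KO larvae. Each library held the pooled RNA of dissected heads (11 to 17 per genotype, per the study's methods), and the 4 replicates of a genotype came from different breeding pairs and times. A head holds eyes, skin, muscle and cartilage beside the brain, and neither the hour of dissection nor the light cycle is stated in the labels or the methods used here.

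PAR bZIP proteins are transcription activators named for a proline- and acidic amino acid-rich domain beside the basic leucine zipper. They bind D-box elements, and their own transcription is driven by the CLOCK and BMAL proteins, so that their transcripts swing over the day in many tissues. NFIL3 (E4BP4) has a bZIP domain that reads the same element but lacks the PAR domain, and it represses where the PAR bZIP proteins activate. Rev-erb proteins are heme-binding nuclear receptors that repress genes with a ROR element, *bmal1* and, in mammals, *Nfil3* among them, in competition with the ROR activators. In zebrafish, D-box elements also carry the direct response of peripheral tissues to light, and *tefa* has been tied to the light response of *per2*. The a and b copies of a gene stem from the genome duplication of teleost fish and are separate genes.

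The targeted gene had between 1894 and 2545 raw counts per WT library and between 26 and 63 per *mtmr5*-KO library. The WT libraries held 20514932 to 22761120 counts in total and the *mtmr5*-KO libraries 16104181 to 19170140, and mitochondrially encoded genes took 6.43% to 8.82% and 18.6% to 26.6% of them. Levels are therefore given as TMM-scaled counts, in which each library is scaled by the bulk of its genes rather than by its total. Neuron markers were present in every library, with a summed level of 4399 to 5606 TMM-scaled CPM (counts relative to the effective library size) in WT, against 7300 to 9126 in *mtmr5*-KO. Photoreceptor markers were present as well (6689 to 14382 and 3644 to 13585), so that brain and eye tissue were both present. The sample titles call the libraries brain-enriched, and the methods of the study state that heads were dissected. The 10 genes together had 18861 to 31027 raw counts in a WT library and 8233 to 18403 in a *mtmr5*-KO library.

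Of the 6 PAR bZIP genes, 3 rose in *mtmr5*-KO, 1 from each duplicated pair. These were *dbpa* (2.96-fold), *tefb* (2.73-fold) and *hlfa* (2.51-fold), while their partners *dbpb*, *tefa* and *hlfb* did not pass the test. A pass in 1 copy without a pass in the other does not by itself show that the copies differ. None of the 3 Rev-erb genes passed, and *nfil3* was lower in every *mtmr5*-KO library than in any WT library without passing after adjustment. With edgeR's quasi-likelihood test and a cutoff of 0.05 on the adjusted p, 3 of the 10 genes were thus called higher, where 13.5% of all tested genes were, and 0 were called lower, where 7.51% were. DESeq2 and limma-voom also called 3 higher and 0 lower. Of all 19412 tested genes, DESeq2 called 3047 higher and 1981 lower, and limma-voom 2593 and 1408. At an unadjusted p under 0.05 edgeR gave 3 of the 10 genes higher and 1 lower. The share of all tested genes at that unadjusted cutoff was not computed. Such counts, here and below, therefore have no background to be read against. The same 3 genes passed the thresholds of the study (0.01 for the adjusted p and a log2 fold change beyond 1 in either direction), which 7.13% of all tested genes passed upward and 1.08% downward. The median log2 fold change of the 10 genes was 0.16, beside -0.02 over all tested genes. The replicates *mtmr5*-KO 3 and 4 had the highest summed levels of liver markers (589 and 696 TMM-scaled CPM, against 101 to 155 in WT), and with both left out the 3 genes were still called higher, where 8.27% of tested genes were (and 0 lower, where 4.17% were), but *hlfa* missed the threshold of 0.01 (adjusted p = 0.0105). In bulk RNA of whole heads, a change in the number of cells that express a gene and a change in RNA per cell cannot be told apart.

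*dbpa*, the first copy of the D-box binding protein gene, had 578, 766, 533 and 796 TMM-scaled counts in WT replicates 1 to 4 and 1995, 2116, 1559 and 2252 in *mtmr5*-KO replicates 1 to 4. The lowest *mtmr5*-KO library lay well above the highest WT library, and within each genotype the 4 libraries stayed close together. The mean rose from 668 ± 132 to 1981 ± 300 (SD, n = 4 per genotype), that is, by a log2 fold change of 1.57 ± 0.17 (SE, adjusted p = 8.05e-06, edgeR). It had the smallest p of the 10 genes, and the log2 fold change ranged from 1.47 to 1.66 when each library was left out in turn.

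*tefb*, a copy of the thyrotroph embryonic factor gene, had 284, 302, 220 and 282 TMM-scaled counts in WT and 523, 718, 945 and 782 in *mtmr5*-KO. All *mtmr5*-KO libraries lay above all WT libraries, with replicate 3 highest and replicate 1 lowest among them. The mean rose from 272 ± 36.1 to 742 ± 175 (SD, n = 4 per genotype), that is, by a log2 fold change of 1.44 ± 0.19 (SE, adjusted p = 4.14e-05, edgeR). Without *mtmr5*-KO replicates 3 and 4 it was 1.16 (adjusted p = 0.00207).

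*hlfa*, a copy of the hepatic leukemia factor gene, had 680, 399, 408 and 416 TMM-scaled counts in WT and 902, 1155, 1480 and 1240 in *mtmr5*-KO. The genotypes did not overlap here either, although WT replicate 1 stood apart from the other WT libraries and *mtmr5*-KO replicate 1 was the lowest of its genotype. The mean rose from 476 ± 136 to 1194 ± 239 (SD, n = 4 per genotype), that is, by a log2 fold change of 1.32 ± 0.20 (SE, adjusted p = 0.000174, edgeR). Leaving out WT replicate 1 gave 1.55.

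**Figure D1:**
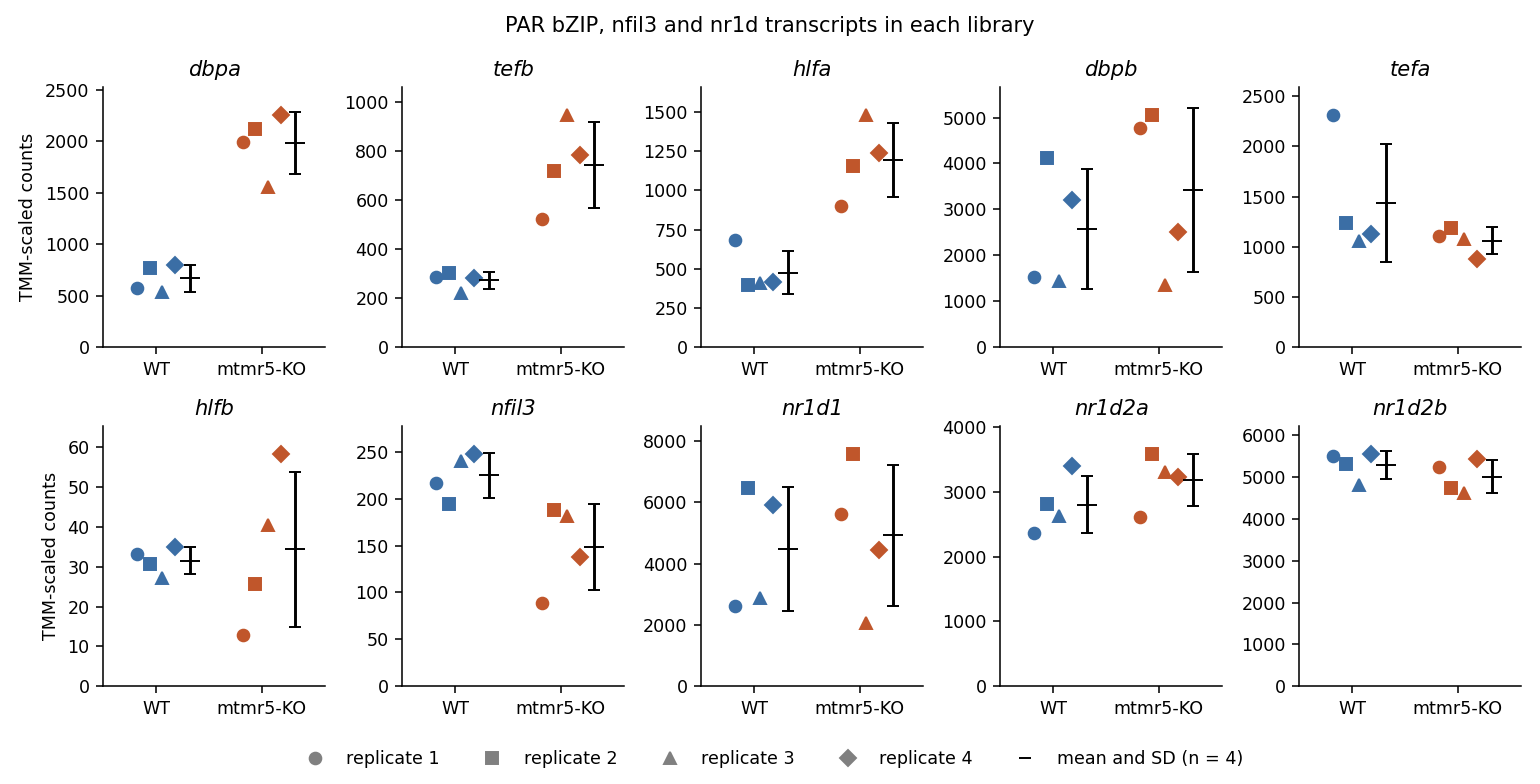
TMM-scaled counts (y axis, from 0) of the 10 genes in the 4 WT libraries (blue) and the 4 *mtmr5*-KO libraries (orange), with 1 symbol per library by replicate number and the mean and SD of each genotype (n = 4) drawn beside them. *dbpa*, *tefb* and *hlfa* lie higher in every *mtmr5*-KO library, *nfil3* lies lower in every one, and the other 6 genes overlap between the genotypes, with *dbpb* and *nr1d1* spread widely within each.

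The 3 partner genes overlapped between the genotypes. *dbpb*, the other D-box binding protein gene, had 1537, 4125, 1436 and 3202 TMM-scaled counts in WT and 4769, 5052, 1347 and 2512 in *mtmr5*-KO. Replicates 2 and 4 were high in WT and replicates 1 and 2 were high in *mtmr5*-KO, so that each genotype held both high and low libraries. The log2 fold change was 0.41 ± 0.52 (SE, adjusted p = 0.635, edgeR). Without *mtmr5*-KO replicates 3 and 4 it was 0.90 ± 0.42 (SE, adjusted p = 0.214, edgeR).

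*tefa*, the copy of the pair that is known for its light response, had 2311, 1238, 1059 and 1132 TMM-scaled counts in WT and 1105, 1188, 1082 and 874 in *mtmr5*-KO. A single library, WT replicate 1, was high, and the other 7 lay close to one another. The log2 fold change was -0.43 ± 0.22 (SE, adjusted p = 0.177, edgeR) and -0.10 without that library (adjusted p = 0.696).

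*hlfb* was the gene with the fewest reads, 8 to 55 raw counts per library, and 1 library was under the minimum of 10. It had 33.2, 30.7, 27.2 and 34.9 TMM-scaled counts in WT and 12.9, 25.8, 40.4 and 58.2 in *mtmr5*-KO. The WT libraries were alike, and the *mtmr5*-KO libraries spread to both sides of them. The log2 fold change was 0.10 ± 0.46 (SE, adjusted p = 0.899, edgeR), and its sign changed in several of the alternative fits. No difference was detectable for *hlfb* at this depth.

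*nfil3*, the repressor that reads the same element, had 217, 195, 240 and 247 TMM-scaled counts in WT and 88.7, 187, 182 and 137 in *mtmr5*-KO. Every *mtmr5*-KO library lay below every WT library, but the gap between replicate 2 of each genotype was narrow and *mtmr5*-KO replicate 1 was far below the rest. The means were 225 ± 23.9 and 149 ± 45.9 (SD, n = 4 per genotype), with a log2 fold change of -0.59 ± 0.24 (SE, unadjusted p = 0.0235, adjusted p = 0.0882, edgeR). The adjusted p was 0.0636 with DESeq2 and 0.0663 with limma-voom, and ranged from 0.0529 to 0.189 when each library was left out in turn. Not every alternative fit left *nfil3* uncalled, and those that called it are given further below. Over the 10 genes, 3 had all *mtmr5*-KO libraries above all WT libraries and 1 had them all below, where 13.9% and 11% of all tested genes had.

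The Rev-erb genes showed no difference past the test. *nr1d1*, which encodes Rev-erb alpha, had 2616, 6474, 2871 and 5922 TMM-scaled counts in WT and 5624, 7566, 2068 and 4453 in *mtmr5*-KO. As for *dbpb*, WT replicates 2 and 4 and *mtmr5*-KO replicates 1 and 2 were the high libraries of their genotypes. The log2 fold change was 0.14 ± 0.43 (SE, adjusted p = 0.854, edgeR), and its sign was negative without WT replicate 1, WT replicate 3 or *mtmr5*-KO replicate 2.

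*nr1d2a*, a copy of the gene of Rev-erb beta, had 2372, 2817, 2631 and 3398 TMM-scaled counts in WT and 2619, 3581, 3303 and 3224 in *mtmr5*-KO. The genotypes overlapped over most of their range. The log2 fold change was 0.18 ± 0.16 (SE, adjusted p = 0.445, edgeR). *nr1d2b*, the other copy, had 5501, 5310, 4813 and 5548 in WT and 5246, 4742, 4618 and 5439 in *mtmr5*-KO, with a log2 fold change of -0.08 ± 0.14 (SE, adjusted p = 0.734, edgeR). Its 8 libraries were the most alike of any of the 10 genes.

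Counts are relative within a library, so the direction of a small change depends on the scaling. Scaled by library totals alone, the median log2 fold change over all tested genes was -0.98, and changes are best read against that value. *dbpa* was then at 0.64 and still called (adjusted p = 0.0258, edgeR), and *tefb* at 0.45 (adjusted p = 0.0988) and *hlfa* at 0.30 (adjusted p = 0.305) were no longer called. The genes *nfil3* (-1.56), *tefa* (-1.42), *nr1d2b* (-1.04) and *nr1d2a* (-0.77) were called lower on that scale, where 10819 of all 19412 tested genes were. With library totals the share of higher among all calls was 6.23%, against 64.2% with TMM scaling. Under both scalings *dbpa*, *tefb* and *hlfa* lay above the median of all tested genes by more than 1 on the log2 scale, *nfil3* and *tefa* lay below it, and *nr1d2b* lay within 0.1 of it. A change of scaling moves all genes by a similar amount. Distances to the median are therefore alike under both by construction, and the second scaling is no independent check of them.

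**Figure D2:**
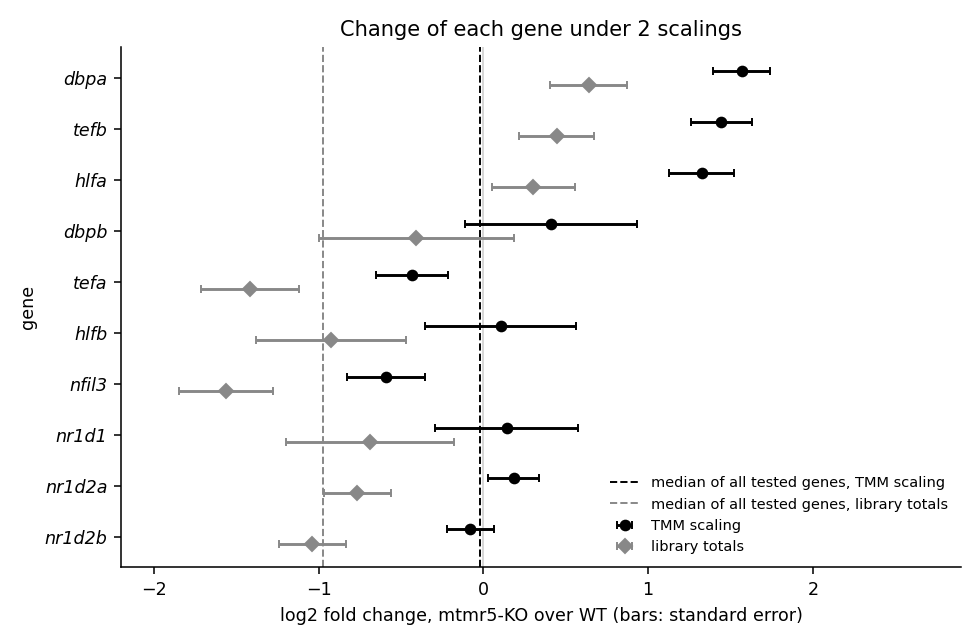
Log2 fold change of *mtmr5*-KO over WT (x axis) of each of the 10 genes with TMM scaling (black circles) and with library totals (grey diamonds), where bars are standard errors and dashed lines are the medians of all tested genes under each scaling (-0.02 and -0.98). *dbpa*, *tefb* and *hlfa* are positive under both scalings, and *dbpb*, *hlfb*, *nr1d1* and *nr1d2a* are positive with TMM scaling and negative with library totals.

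The ratio of a pair of genes within a library does not depend on the scaling, and was used to compare partners with each other. The 12 pairs were the copies within each family and each PAR bZIP gene against *nfil3*. Each ratio is given on the log2 scale, from raw counts plus 0.5, and its level also reflects transcript lengths, so that only its difference between genotypes is compared. The smallest p that an exact permutation test of 4 against 4 libraries can give is 0.0286, which became 0.0571 after adjustment over the 12 pairs. Thus 0 pairs passed an adjusted p under 0.05, while 6 pairs had non-overlapping genotypes and that smallest p. Each of the 6 includes *dbpa*, *tefb* or *hlfa*, so they are not 6 separate results. No share over other gene pairs was computed. Of single tested genes, 13.9% had all *mtmr5*-KO libraries above all WT libraries and 11% had them all below.

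Within the *tef* pair, the log2 ratio of *tefa* to *tefb* was 3.02, 2.03, 2.27 and 2.002 in WT and 1.08, 0.72, 0.20 and 0.16 in *mtmr5*-KO. Every *mtmr5*-KO library lay below every WT library, a difference of -1.79 (two-sided exact permutation test, p = 0.0286, adjusted p = 0.0571). Without WT replicate 1, where *tefa* was high, the difference was -1.56. The read counts of the *tef* copies were thus closer to even in each *mtmr5*-KO library than in any WT library.

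The log2 ratio of *dbpa* to *dbpb* was -1.41, -2.43, -1.43 and -2.01 in WT and -1.26, -1.26, 0.21 and -0.16 in *mtmr5*-KO. The genotypes did not overlap, although the single genes differed widely in how steady they were, and the difference was 1.204 (exact p = 0.0286, adjusted p = 0.0571). The log2 ratio of *hlfa* to *hlfb* was 4.35, 3.69, 3.89 and 3.56 in WT and 6.04, 5.45, 5.16 and 4.39 in *mtmr5*-KO, a difference of 1.39 (exact p = 0.0286, adjusted p = 0.0571). For the *hlf* pair the gap between the highest WT and the lowest *mtmr5*-KO library was narrow and rested on low counts of *hlfb*. The gap was narrow for the *dbp* pair as well (-1.41 in WT replicate 1 and -1.26 in *mtmr5*-KO replicate 1).

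The ratio to *nfil3* was higher in every *mtmr5*-KO library than in any WT library for 3 of the 6 PAR bZIP genes. It covers only 1 *nfil3* gene. The relatives *nfil3-5* and *nfil3-6* had higher WT means (1090 and 302 TMM-scaled counts, against 225) and were not used in ratios. Their log2 fold changes were -0.01 (adjusted p = 0.995) and 0.47 (adjusted p = 0.364, edgeR). The log2 ratio of *dbpa* to *nfil3* was 1.42, 1.97, 1.15 and 1.68 in WT and 4.48, 3.49, 3.09 and 4.03 in *mtmr5*-KO, a difference of 2.22. That of *tefb* to *nfil3* differed by 2.07 (-0.13 to 0.63 in WT, against 1.93 to 2.55 in *mtmr5*-KO), and that of *hlfa* to *nfil3* by 1.98 (0.75 to 1.65 and 2.62 to 3.33). In all 3 pairs the genotypes did not overlap (exact p = 0.0286 and adjusted p = 0.0571 each). This follows from the single genes, because *dbpa*, *tefb* and *hlfa* were higher and *nfil3* was lower in every *mtmr5*-KO library. These 3 tests are therefore no further evidence beyond the single genes. The ratios of *dbpb*, *tefa* and *hlfb* to *nfil3* overlapped between the genotypes, with differences of 1.01, 0.28 and 0.60 (exact p = 0.200, 0.514 and 0.257).

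The Rev-erb ratios overlapped in all 3 pairs. The difference was 0.27 for *nr1d2a* to *nr1d2b* (exact p = 0.200), -0.07 for *nr1d1* to *nr1d2a* (exact p = 0.943) and 0.19 for *nr1d1* to *nr1d2b* (exact p = 0.743).

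**Figure D3:**
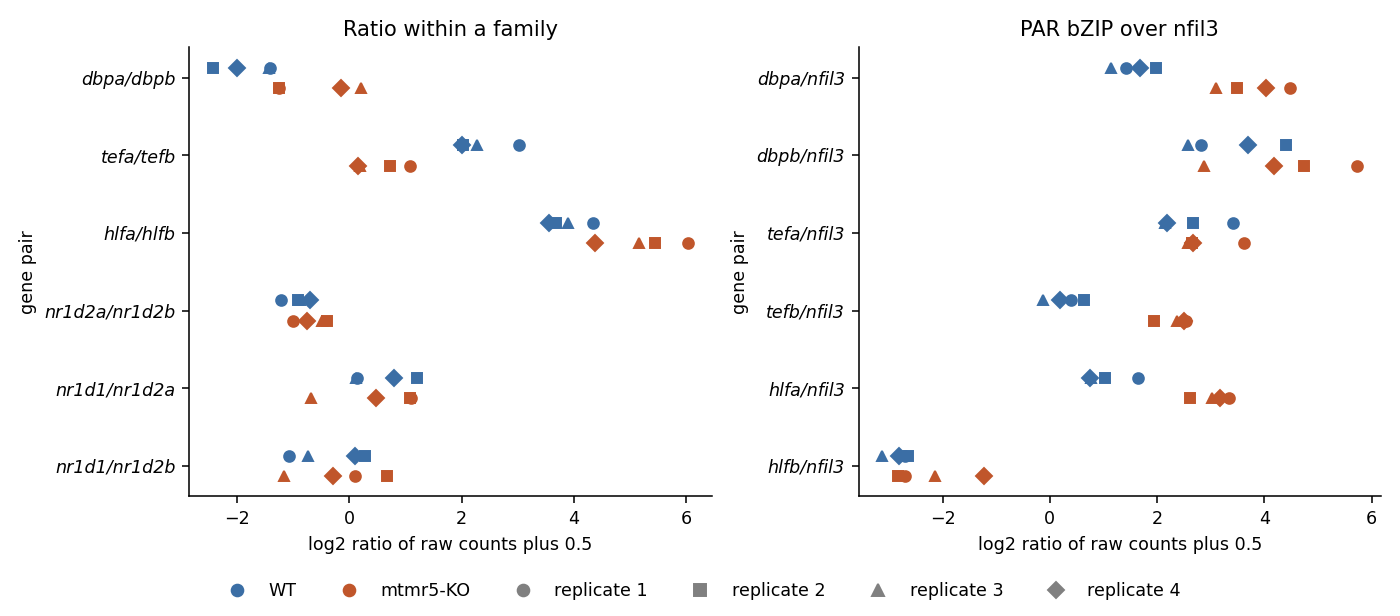
Log2 ratio of raw counts plus 0.5 (x axis) for the 6 pairs within a family and the 6 pairs of a PAR bZIP gene with *nfil3*, with 1 symbol per library (blue WT, orange *mtmr5*-KO, shape by replicate number). The 2 genotypes lie apart for *dbpa*/*dbpb*, *tefa*/*tefb*, *hlfa*/*hlfb* and for *dbpa*, *tefb* and *hlfa* over *nfil3*, and overlap for the other 6 pairs.

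The 10 genes differed in how far replicates of 1 genotype lay from each other. The pooled SD within genotype, on the log2 scale, was 0.83 for *dbpb* and 0.74 for *nr1d1*, beside a median of 0.40 over all tested genes and 0.26 over those with a level above the median. These SDs were larger than those of 98.8% and 98.3% of the tested genes with a level above the median, a group that spans a wide range of levels. At the other end, *nr1d2b* had an SD of 0.10, larger than that of only 2.69% of such genes. *dbpa*, with 0.26, was near their median, and *tefb* (0.29), *hlfa* (0.33), *nfil3* (0.36) and *tefa* (0.39) were somewhat above it. The pooled SD was 0.21 for *nr1d2a* and 0.62 for *hlfb*, the gene with the fewest reads. For *hlfb* the SD was 0.15 in WT and 0.87 in *mtmr5*-KO, and for *nfil3* it was 0.16 and 0.49.

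*dbpb* and *nr1d1* ordered the libraries in the same way, which was seen in the values and is given as a description. In both, WT replicates 2 and 4 lay above WT replicates 1 and 3, and *mtmr5*-KO replicates 1 and 2 lay above *mtmr5*-KO replicates 3 and 4. This order was found in 3.78% of all tested genes and in 6 of 59 other clock genes, among them the fish Rev-erb relatives *nr1d4a* and *nr1d4b*, the period gene *per1a* and the E-box repressor gene *bhlhe41*. The last 2, like *bmal1b* and *cry3b* below, were chosen after their values were seen. *per1a* had 683, 1335, 455 and 1174 TMM-scaled counts in WT and 1563, 1730, 470 and 1069 in *mtmr5*-KO. *bhlhe41* had 1556, 3774, 1135 and 2822 and then 4267, 4102, 1131 and 2483.

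The opposite order was found in 3.15% of all tested genes, in 0 of the 10 genes and in 13 of 59 other clock genes (22%). It included both copies of *bmal1*, which Rev-erb proteins repress, *rorca* and *rorcb*, which encode ROR activators, and *per2*, *cry3a* and *cry3b*. *bmal1a* had 588, 353, 798 and 540 TMM-scaled counts in WT and 348, 258, 682 and 524 in *mtmr5*-KO, and *bmal1b* had 97.7 to 219 and then 44.4 to 440, highest in *mtmr5*-KO replicate 3. *rorcb* had 1945, 484, 2451 and 1271 in WT and 442, 376, 2306 and 930 in *mtmr5*-KO. Of 6 *clock*, *bmal* and *npas2* genes 2 had this opposite order, as did 2 of 5 *ror* genes. So did 3 of 9 *per* and *cry* repressor genes. The rest with it were *fbxl3a*, *cry5*, *cpdp*, *xpc*, *neil1* and *nampt1*. Neither *roraa*, *rorab* and *rorb* nor *nfil3* had it. The genes with it run against *nr1d1* by definition, so low *bmal1* and *rorc* copies where *nr1d1* was high are no separate result. Some gaps were narrow, as for *rorca* in WT replicates 3 and 4 (109 and 108). Summed lens markers were also higher in WT replicates 2 and 4 (25002 and 20458 TMM-scaled CPM) than in WT replicates 1 and 3 (4450 and 5400), and higher in *mtmr5*-KO replicates 1 and 2 (652 and 1009) than in replicates 3 and 4 (101 and 114). Neither the part of eye tissue nor that of the hour of dissection in this order was tested.

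**Figure D4:**
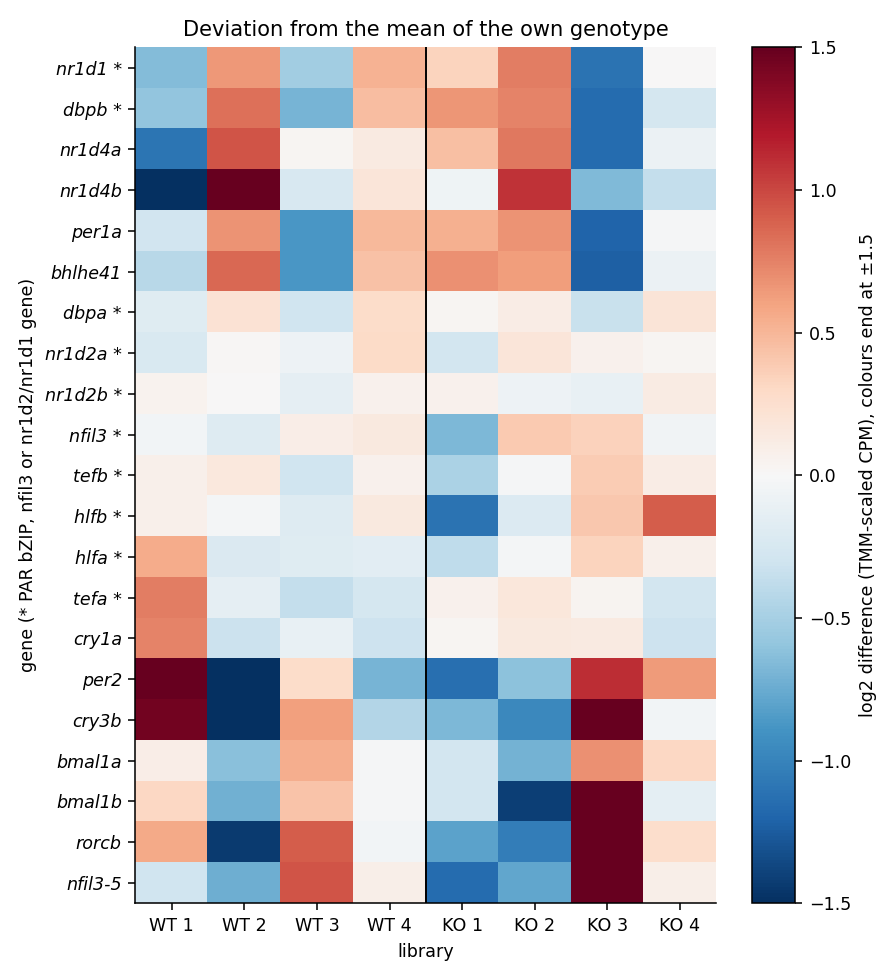
Log2 difference of each library from the mean of its own genotype (colour, ending at ±1.5) for the 10 genes, marked with an asterisk, and 11 other clock genes (rows), in the 8 libraries (columns). *nr1d1*, *dbpb*, *nr1d4a*, *nr1d4b*, *per1a* and *bhlhe41* are red in WT 2 and 4 and mostly blue in WT 1 and 3, the *bmal1*, *cry3b*, *per2* and *rorcb* rows run the other way, and *dbpa*, *nr1d2a* and *nr1d2b* are pale throughout.

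WT replicate 1 was the highest WT library for *tefa* and *hlfa*, 2 of the 10 genes (20%). For all tested genes the share was 28.1%, so the 10 genes did not exceed it. Among 59 other clock genes it was 45.8%. By list it ran from 0% of *nfil3* and *nr1d* relatives and 16.7% of modifiers to 72.7% of light-responsive and D-box genes (8 of 11), the highest. *per2*, whose light response runs through D-box and E-box elements, had 2636 TMM-scaled counts in WT replicate 1 and 177, 713 and 365 in the other WT libraries, beside 110, 157, 525 and 381 in *mtmr5*-KO (log2 fold change -1.75, standard error 0.99, adjusted p = 0.274, edgeR). *cry1a*, a cryptochrome gene induced by light in zebrafish, had 2638 in that library and 1252, 1455 and 1272 in the others. *lonrf1* had 1765 there and 461 to 752 in the other WT libraries. The light exposure of the larvae before dissection is stated nowhere in the labels or methods used here, and its part in these values was not tested.

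Of 61 other clock genes in the table, 59 were tested, and 7 rose and 2 fell in *mtmr5*-KO (edgeR, cutoff of 0.05 on the adjusted p), with a median log2 fold change of -0.05. As shares, 11.9% rose and 3.39% fell, beside 13.5% and 7.51% of all tested genes. Without *mtmr5*-KO replicates 3 and 4, 5 were called higher and 2 lower. None of 6 activators (*clock*, *bmal* and *npas2* genes) and none of 5 *ror* genes passed edgeR's test, where 1 activator and 0 *ror* genes had an unadjusted p under 0.05 and DESeq2 and limma-voom each called 1 activator and 0 *ror* genes. *clocka* had the smallest p among the activators, with 12.7 to 39.3 TMM-scaled counts in WT, against 35.4 to 70.7 in *mtmr5*-KO (log2 fold change 1.11, standard error 0.42, adjusted p = 0.0717 with edgeR, 0.0350 with DESeq2 and 0.0408 with limma-voom), followed by *clockb* (0.73), *bmal2* (-0.51) and *bmal1a* (-0.34, adjusted p = 0.467).

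Among 9 *per* and *cry* repressor genes, 1 rose and 2 fell. *cry2* had 773, 929, 506 and 836 TMM-scaled counts in WT and 1498, 2432, 1908 and 3255 in *mtmr5*-KO, with no overlap, and rose with a log2 fold change of 1.58 ± 0.23 (SE, adjusted p = 0.000177, edgeR). *cry1a* fell by 0.67 on the log2 scale (standard error 0.22, adjusted p = 0.0394) and *cry1b*, its copy, fell by 0.47 ± 0.16 (SE, adjusted p = 0.0485). Both losses were close to the threshold: without WT replicate 1 they were -0.35 (adjusted p = 0.141) and -0.34 (adjusted p = 0.159), and they also missed the threshold without most of the other libraries.

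Of 12 modifiers of clock proteins, 1 was called with edgeR, *fbxl3a*. It is a copy of the gene of an F-box protein that directs cryptochromes to degradation in mammals, and had 45.0 to 89.8 TMM-scaled counts in WT, against 110 to 230 in *mtmr5*-KO (log2 fold change 1.28, standard error 0.31, adjusted p = 0.00759, edgeR). Without *mtmr5*-KO replicates 3 and 4 its adjusted p was 0.0998. The casein kinase genes *csnk1da* and *csnk1db*, whose products phosphorylate period proteins, had log2 fold changes of -0.43 (adjusted p = 0.0972) and -0.27 (adjusted p = 0.244).

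Of 11 light-responsive and D-box genes, 2 rose and 0 fell, and both act in DNA repair. The list was made with several DNA repair genes in it, so this shared function is no separate result. *xpc*, which encodes a damage sensor of nucleotide excision repair, had 756, 387, 614 and 570 TMM-scaled counts in WT and 1229, 1391, 2684 and 2421 in *mtmr5*-KO. It rose with a log2 fold change of 1.73 ± 0.26 (SE, adjusted p = 0.000386, edgeR). *neil1*, which encodes a glycosylase of base excision repair, had 432 to 679 in WT, against 864 to 1815 in *mtmr5*-KO, and rose by 0.98 ± 0.24 (SE, adjusted p = 0.00819). The call of *neil1* was lost without *mtmr5*-KO replicates 3 and 4 (adjusted p = 0.0678), and its value was -0.07 with library totals. In the same list *ddb2*, another gene of nucleotide excision repair, was at -0.54 (adjusted p = 0.129) and *lonrf1* at -1.23 (adjusted p = 0.165), so genes of this list did not share a direction.

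Of 12 clock-controlled output genes, 3 rose and 0 fell with edgeR, where DESeq2 called 5 higher and limma-voom 2. *nampt1*, which encodes an enzyme of NAD salvage, had 7.75 to 36.8 TMM-scaled counts in WT, against 65.8 to 89.4 in *mtmr5*-KO (log2 fold change 2.02, standard error 0.43, adjusted p = 0.00327, edgeR). *pfkfb4b*, which encodes a regulator of glycolysis, had 833 to 1296 in WT, against 1496 to 2238 in *mtmr5*-KO (log2 fold change 0.85, standard error 0.18, adjusted p = 0.00301), but was at -0.10 with library totals. *klf9*, which encodes a transcription factor also induced by glucocorticoids, was called with overlapping genotypes (56.6 to 95.9 in WT and 54.8, 196, 204 and 216 in *mtmr5*-KO, adjusted p = 0.0235). Its call was lost without *mtmr5*-KO replicates 3 and 4 (adjusted p = 0.260).

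The relatives of *nfil3* and the Rev-erb genes that were not among the 10 genes gave 0 calls of 4 tested with edgeR, DESeq2 or limma-voom, and 1 had an unadjusted p under 0.05. *nr1d4a* had 29.6, 128, 67.2 and 72.1 TMM-scaled counts in WT and 189, 239, 60.6 and 129 in *mtmr5*-KO (log2 fold change 1.07, standard error 0.44, adjusted p = 0.101, edgeR). It was called without *mtmr5*-KO replicate 3 (1.31, adjusted p = 0.0347) and without WT replicate 2 (1.47, adjusted p = 0.0354). *nr1d4b* was at 1.33 (adjusted p = 0.244), and was called in 1 of the fits with a library left out, that without WT replicate 2 (2.28, adjusted p = 0.00858). The *nfil3* relative with the widest spread, *nfil3-5*, had 803, 593, 1906 and 1056 in WT and 342, 445, 2744 and 809 in *mtmr5*-KO, with a log2 fold change of -0.01 (adjusted p = 0.995) and a sign that changed between settings.

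The genes most like *dbpa* over the 8 libraries, by the root mean square difference of log2 TMM-scaled CPM after subtracting the WT mean, were *wwc1* (0.162), *cnga1b* (0.180) and *ANKRD33* (0.196). Their log2 fold changes were 1.77, 1.47 and 1.60, and all 3 were called (adjusted p = 0.000852, 3.53e-06 and 0.000182, edgeR). Only the WT mean was subtracted, so closeness to *dbpa* includes its rise. The values and calls of these 3 genes therefore follow from how they were picked and are no separate result. *wwc1* encodes a scaffold protein of the Hippo pathway, *cnga1b* a copy of the rod photoreceptor cation channel, and Ankrd33 is known from photoreceptors in mouse. For *nr1d2b*, the most abundant of the 10 genes in reads, the nearest genes were *vps13a* (0.0146), *utp3* (0.0508) and *ogdha* (0.0606), with log2 fold changes of -0.07, -0.04 and -0.0076. These small changes likewise follow from how the genes were picked.

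Markers of other tissues moved with genotype as well. Of 17 liver markers tested, 12 were higher and 0 lower in *mtmr5*-KO (median log2 fold change 2.02), with a summed level of 101 to 155 TMM-scaled CPM in WT and 312, 230, 589 and 696 in *mtmr5*-KO replicates 1 to 4. Of 17 skeletal muscle markers, 7 were higher and 2 lower (352 to 406 CPM in WT, against 529 to 666 in *mtmr5*-KO), and of 11 exocrine pancreas and gut markers 6 were higher and 0 lower (3 higher with limma-voom, 10.8 to 27.5 and 24.9 to 132). Neuron markers were higher for 9 and lower for 2 of 17. Of 17 lens markers 15 were lower and 0 higher, while none of 18 photoreceptor markers was called by edgeR, DESeq2 or limma-voom (1 had an unadjusted p under 0.05). Of 11 genes listed as pineal markers 1 was higher, *parapinopsinb* (adjusted p = 0.00257, edgeR), and 1 lower, *gngt2a* (adjusted p = 0.00150, edgeR). Their sum was 561 to 834 CPM in WT, against 463 to 871 in *mtmr5*-KO. The largest WT means in that list were those of *gngt1* and *crx* (4980 and 4318 TMM-scaled counts). These 2 genes and *gngt2a* are not specific to the pineal, so the sum is no measure of pineal tissue alone. Of 6 erythrocyte markers 1 was higher. PAR bZIP genes are expressed in liver, muscle and brain, and the part of tissue makeup in the rise of *dbpa*, *tefb* and *hlfa* was not tested. Without *mtmr5*-KO replicates 3 and 4, where liver marker levels were highest, the log2 fold change was 1.59 for *dbpa* (adjusted p = 0.000131, edgeR), beside 1.57 with all libraries. It was 1.16 for *tefb* (beside 1.44) and 1.07 for *hlfa* (beside 1.32). The kept *mtmr5*-KO replicates 1 and 2 still had summed liver markers above every WT library (312 and 230, against 101 to 155). This fit therefore does not hold tissue makeup constant.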

How the data were processed

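Paired-end reads were trimmed by the authors (Trim Galore 0.6.7), mapped to GRCz11 (STAR 2.7.11a) and counted per gene where they mapped uniquely (HTSeq 2.0.5), as given in the submitters' processing notes and the methods. The deposited raw counts (whole numbers, 32520 rows, 2901 repeated symbols made unique) were used for every value. The deposited normalized counts, a signal the authors made by dividing by 1 size factor per library, served only to check the filter: their 19412 rows are the genes that reach 10 counts in 3 or more libraries. Unique mapping can lose reads shared by near-identical copies, and the notes do not state whether strand was used in counting.

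Raw counts were tested with edgeR 4.0.16 in R 4.3.3 (glmQLFit with robust=TRUE, glmQLFTest, TMM factors, Benjamini-Hochberg adjustment over 19412 genes), with genotype as the only term. TMM-scaled counts are counts divided by the effective library size and multiplied by the mean effective size. The standard error is the log2 fold change over the square root of F. The TMM factors of WT libraries lay between 1.28 and 1.60, and those of *mtmr5*-KO libraries between 0.559 and 0.881. Total counts per library are given above and limit the precision of low genes such as *hlfb*. Ratios of 12 gene pairs were compared with two-sided exact permutation tests. The alternatives were DESeq2 1.42.0, limma 3.58.1 (voom), RLE and upper quartile factors, library totals, no filter and a filter of 50 counts in 4 libraries, the replicate number as a block, another pseudocount (5) for ratios, and each library left out in turn. A fit without *mtmr5*-KO replicates 3 and 4 was added after the data were seen. Plots used matplotlib 3.10.9 (Python 3.11.15). The fit was tested on simulated data in which few genes were changed, up or down at random. That test does not check the scaling between the genotypes in the real data.

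The 10 genes and all lists were chosen with earlier results of these data known. Genes named beside the 10 are, unless stated, up to 4 per clock list with the smallest p and the 3 nearest profiles to the gene with the smallest p and to the most abundant gene. Of the 10 symbols, 8 matched the gene name table and 10 the RefSeq table. Sequences and coordinates were not used here.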

Additional observations from a re-analysis of the deposited data

Results flagged for a closer look

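Among 20 groups of 4 libraries (10 genes in each genotype), 2 held a library far from the other 3 by Dixon's criterion at the 95% level, where chance gives about 1 in 20. *tefa* in WT replicate 1 had 2311 TMM-scaled counts, and the other WT libraries had 1059 to 1238. *hlfa* in the same library had 680 TMM-scaled counts, and the others had 399 to 416. Both genes belong to the PAR bZIP family and both values lie in the same library.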

How the results depend on the processing

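*dbpa*, *tefb* and *hlfa* kept their direction in every alternative run and stayed called, except that *tefb* and *hlfa* were not called with library totals. There, 1 of the 10 genes was called higher and 4 lower, where 719 and 10819 of all 19412 tested genes were. With library totals, *dbpb* (-0.41), *hlfb* (-0.93), *nr1d1* (-0.69) and *nr1d2a* (-0.77) changed sign. So did *nfil3-6* (-0.43), *clockb* (-0.38), *rorca* (-0.41), *neil1* (-0.0659), *pfkfb4a* (-0.35) and *pfkfb4b* (-0.10), and 2 other clock genes were called higher and 35 lower. The median of all tested genes was -0.98 with that scaling. *hlfb* was -0.14 with limma-voom and -0.72 without *mtmr5*-KO replicates 3 and 4, where *clockb* was -0.0488 and *rorca* -0.83. *nfil3-5* was 0.0012 with DESeq2, 0.0656 with the strict filter and 0.0621 with upper quartile factors, *utp3* 0.0232 and 0.0105 and *ogdha* 0.0541 and 0.0417 with the last 2. The 2 lower clock genes became 1 with limma-voom and 0 with upper quartile factors or the strict filter, and the cause was not tested.

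Leaving out 1 library at a time gave 3 of the 10 genes higher and 0 lower each time, and 0 to 2 lower clock genes. Of the 18916 to 19284 genes tested in these fits, 2008 to 2769 were called higher and 741 to 1816 lower. Ranges that crossed 0 were -0.29 to 0.37 (*hlfb*), -0.16 to 0.37 (*nr1d1*), -1.05 to 0.40 (*nfil3-5*), -0.0487 to 0.68 (*nfil3-6*), -0.0510 to 1.40 (*rorca*), -0.0692 to 0.0273 (*ogdha*), -0.28 to 0.32 (log2 ratio of *nr1d1* to *nr1d2a*) and -0.0897 to 0.52 (*nr1d1* to *nr1d2b*). Same-numbered libraries of the 2 genotypes deviated together only weakly (r of 0.103, 0.168, 0.0906 and 0.145 over genes), not all over 0.1, so the numbers were not taken to pair them, although every library correlated best with its own number. With the replicate number as a block, 3 of the 10 genes were called higher and 1 lower, *nfil3* (-0.63, adjusted p = 0.0450, edgeR), and *hlfb* was -0.0275. Of all 19412 tested genes, that fit called 2879 higher and 2264 lower. Among the other named genes the block added calls for *nr1d4a* (1.07, adjusted p = 0.0408), *nr1d4b* (1.61, adjusted p = 0.00351), *pfkfb4a* (0.63, adjusted p = 0.0303) and, downward, *csnk1da* (-0.45, adjusted p = 0.00456, edgeR), and ended none. An exact sign-flip test of the 4 within-number differences of a ratio cannot go below p = 0.125. Depth limits *hlfb* above all.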
